A study of Homo sapiens with 12 samples.

Results

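The genes described here encode enzymes of serine, one-carbon, asparagine and proline synthesis: PHGDH, PSAT1, PSPH, SHMT1, SHMT2, MTHFD2, ALDH1L2, ASNS, PYCR1 and ALDH18A1. They are listed by name and not by a threshold on values, although the list was drawn up with earlier results of these libraries known, and are 10 of the 63677 genes in the raw count table. All 10 passed the filter on low counts, which kept 18674 genes for the tests. ALDH1L2, the enzyme that oxidizes formyl-tetrahydrofolate in mitochondria, was the member that moved most. It rose with the drug combination by 2.62 ± 0.44 on the log2 scale (SE, n = 3 lines, edgeR adjusted p = 0.00393). This call was lost without JEKO1 or without MAVER1, and in JVM2 the combination library lay below the control library. SHMT1, the cytosolic serine hydroxymethyltransferase, fell by 0.48 ± 0.10 in the same comparison (SE, n = 3 lines, edgeR adjusted p = 0.00917), a value that did not pass without JEKO1 or without MAVER1. Each of the other 8 members had an adjusted p above 0.05 there.

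Cells make serine from a glycolytic intermediate in steps catalysed by PHGDH, PSAT1 and PSPH. Serine hydroxymethyltransferases then split serine into glycine and a folate-bound carbon unit, SHMT1 mainly in the cytosol and SHMT2 in mitochondria, and MTHFD2 and ALDH1L2 carry the mitochondrial unit on towards formyl-tetrahydrofolate and its release. ASNS makes asparagine from aspartate and glutamine, while ALDH18A1 and PYCR1 act early and late in proline synthesis from glutamate. Many of these genes are known targets of ATF4, the transcription factor of the integrated stress response, which cells use when amino acids run short or unfolded protein accumulates. They are also known to support growth of proliferating lymphoid cells.

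RNA-seq was performed on JEKO1, JVM2 and MAVER1, established cell lines of mantle cell lymphoma (MCL), a B-cell malignancy. Each line was left untreated as control, or treated for 48 h with ironomycin, with ibrutinib or with the drug combination. Ironomycin is a small molecule that sequesters iron in lysosomes, and ibrutinib inhibits Bruton's tyrosine kinase. The dose of ironomycin was 50 nM in JEKO1 and 250 nM in JVM2 and MAVER1. Ibrutinib was used at 0.5 µM in JEKO1, 1.5 µM in JVM2 and 6.25 µM in MAVER1. JVM2 and MAVER1 thus shared the ironomycin dose but not the ibrutinib dose. Otherwise line and dose changed together and cannot be told apart, and JVM2 was grown with less serum than the other lines. Each line gave 1 library per treatment, so the 3 lines served as replicates. The p-values of comparisons between treatments over the 3 lines measure the spread between lines. The 12 libraries held 35448523 to 38630809 counts each. B-cell markers were present in each line. In JVM2 the MCL marker SOX11 had 0 counts in its libraries and CD5 had at most 2. The 3 MCL markers, CCND1 included, nevertheless summed to between 216 and 322 CPM per library in JVM2. Markers of T and NK cells summed to between 0.376 and 8.91 CPM (counts scaled to the TMM-adjusted library total) per library, those of myeloid cells to between 2.29 and 18.8 CPM, and epithelial and stromal markers to between 3.82 and 56.9 CPM. In bulk RNA, fewer cells of a kind and less RNA per cell cannot be told apart.

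The promoters of ASNS, PSAT1 and PHGDH, members whose levels went together over the libraries, are shown first, next to that of SHMT1, because a known stress element lies in one of them. RefSeq start sites (GRCh38.p14) were available for 6 members, in 7 windows of 300 bases, since ASNS has a second window. The bases from 130 to 11 upstream of the start are given 5′ to 3′ on the gene's strand, with matches in capitals to TGATGNAA, the core of the amino acid response element bound by ATF4 with C/EBP proteins, or to CCAAT, the box bound by NF-Y, on either strand (a reverse match of CCAAT reads ATTGG). The windows lie at chr7:97872419-97872538 on the minus strand for ASNS, chr9:78296995-78297114 on the plus strand for PSAT1, chr1:119711804-119711923 on the plus strand for PHGDH and chr17:18363561-18363680 on the minus strand for SHMT1.
ASNS: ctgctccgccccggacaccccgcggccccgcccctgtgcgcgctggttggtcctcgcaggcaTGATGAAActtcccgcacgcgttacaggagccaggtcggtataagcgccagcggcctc
PSAT1: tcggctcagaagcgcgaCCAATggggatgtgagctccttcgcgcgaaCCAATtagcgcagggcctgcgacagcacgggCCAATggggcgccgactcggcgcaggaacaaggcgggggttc
PHGDH: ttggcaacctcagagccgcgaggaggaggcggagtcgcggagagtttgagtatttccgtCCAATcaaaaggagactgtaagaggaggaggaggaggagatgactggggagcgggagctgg
SHMT1: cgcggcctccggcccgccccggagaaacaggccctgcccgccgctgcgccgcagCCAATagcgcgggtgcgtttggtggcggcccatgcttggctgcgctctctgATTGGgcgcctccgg
The ASNS stretch holds TGATGAAA, whose first base lies 68 bases upstream of the start. Among the 7 windows it was the only one with a match to TGATGNAA, a motif found in 3.62% of the 35116 promoter windows of the same length. The PSAT1 stretch carries CCAAT at 3 places and the PHGDH stretch at 1 place, and CCAAT was found in 4 of the 7 windows against 34.6% of all windows. The second ASNS window matched neither motif. PSPH, SHMT2, ALDH1L2 and PYCR1 had no window. A match describes the letters in the window and does not show binding.

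In order to place the changes, the level of each gene was first compared per kb of exon over the 12 libraries. SHMT2 was by far the most abundant, with a median of 305.5 CPM per kb and a range from 154.7 to 459.1. PYCR1 followed at a median of 56.9, then ALDH18A1 at 47.8, PSAT1 at 43.5, MTHFD2 at 37.2, PHGDH at 37.1 and ASNS at 27.1 CPM per kb. The ranges of these 6 genes overlapped, so the medians do not settle their full order. Within each library, PYCR1 lay above MTHFD2, PHGDH and ASNS per kb. The order against PHGDH rests on the lengths used (unions of exons), 9217 bases for PHGDH and 2886 for PYCR1. In CPM without length, PHGDH lay above PYCR1 in each library. PSPH had a median of 12.5, SHMT1 of 4.72 and ALDH1L2 of 0.115 CPM per kb, the last with a range from 0.0118 to 22.4 because of MAVER1. SHMT2 lay above every other member in each library.

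**Figure D1:**
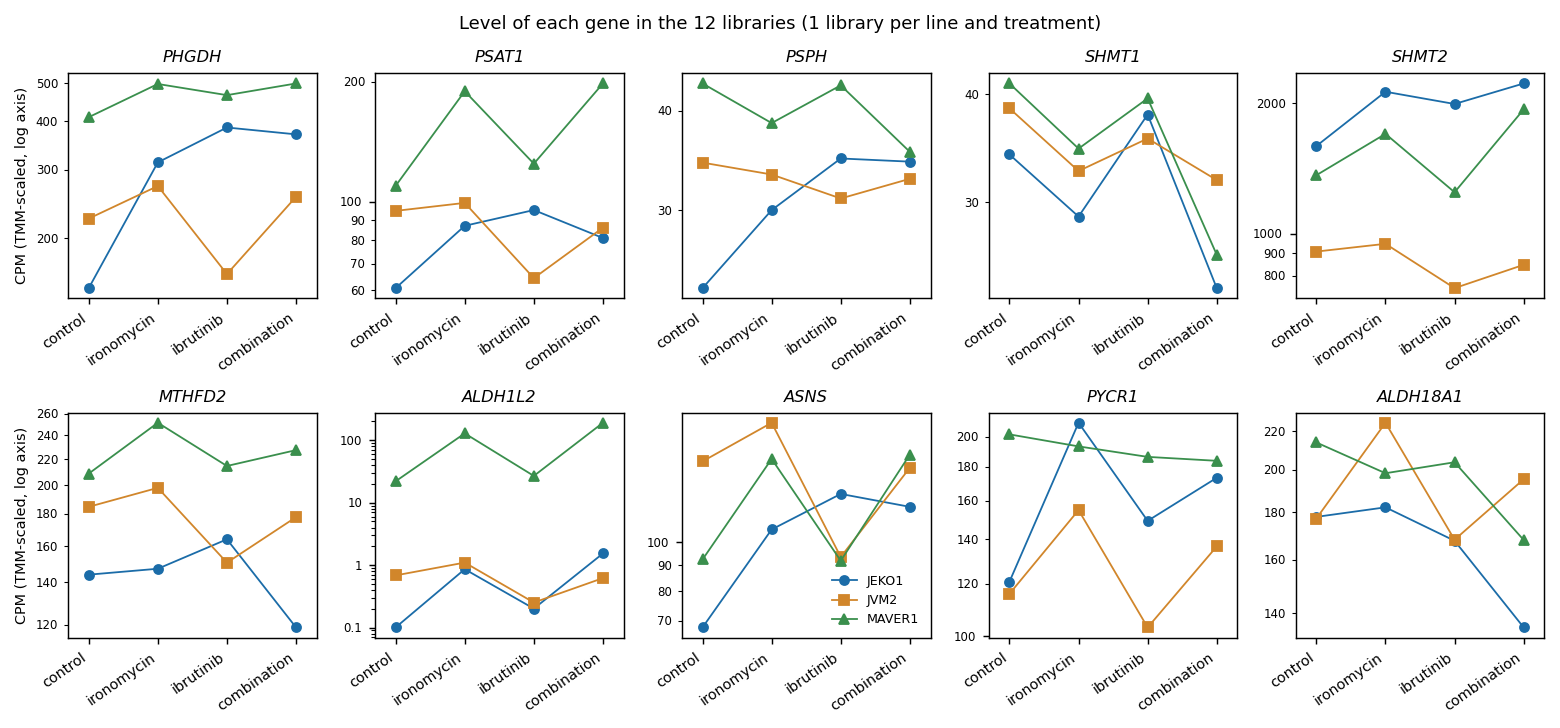
Level of each of the 10 genes in CPM after TMM scaling (y axis, log scale, a different range in each panel) under the 4 treatments (x axis); each point is 1 library, and colours and symbols mark the lines JEKO1, JVM2 and MAVER1, whose points are joined only to guide the eye. ALDH1L2 lies between 22.0 and 190.7 CPM in MAVER1 and at or below 1.54 CPM in the other lines, and the SHMT1 points with ironomycin lie below those without it in each line.

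Few members passed the test. A gene was called when its adjusted p was under 0.05 and its log2 fold change at least 1 in size. With ironomycin against control, 0 of 10 members were called by edgeR, 4 had an unadjusted p under 0.05, and DESeq2 called 1, ALDH1L2. Over all genes tested, edgeR called 0.214% in that comparison, and 0.584% had an adjusted p under 0.05. An unadjusted p under 0.05 was found for 4198 of all genes tested, and DESeq2 called 156 of them. The fitted log2 fold change was above 0 for 9 of the 10 members, with a median of 0.32 against 0.03 over all genes tested. With ibrutinib against control, edgeR called 0 members, against 0% of all genes, and DESeq2 called 0, against 11 of all genes tested. The unadjusted p was under 0.05 for 0 members, against 680 of all genes tested. For the combination against control, 1 of 10 members was called, ALDH1L2, against 6.29% of all genes. The median over the members was 0.25 there, against 0.05 over all genes, and 7 of 10 were above 0. By adjusted p alone, 2 of 10 members passed, ALDH1L2 upward and SHMT1 downward, against 28.2% of all genes. With the combination against ibrutinib, ALDH1L2 was again the 1 member called, against 4.66% of all genes, and ALDH1L2 and SHMT1 passed by adjusted p alone, against 23.3%. Between the combination and ironomycin, edgeR called 0 members, against 0% of all genes, and DESeq2 called 0, against 22 of all genes tested. An unadjusted p under 0.05 was found for 2 members, SHMT1 and ALDH18A1, against 1970 of all genes tested. An effect of the combination beyond the added effects of ironomycin and ibrutinib was called for 0 members by either tool (background 0%). There 0 members had an unadjusted p under 0.05, against 367 of all genes tested. The comparisons against control share the control libraries, and the others share the combination, ironomycin or ibrutinib libraries with them. A single called gene is the smallest count above 0 that 10 members allow, so these shares do not set the members apart from the background.

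**Figure D2:**
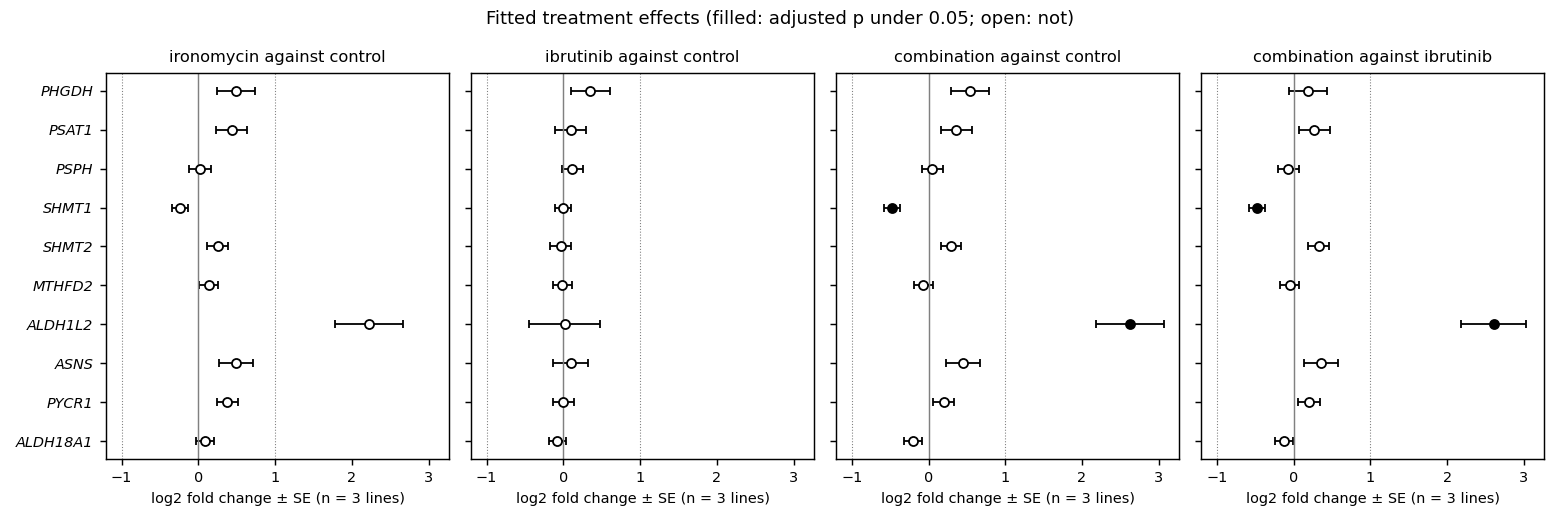
Fitted log2 fold change of each gene (x axis) with its standard error as bars, over 3 lines, for ironomycin, ibrutinib and the combination against control and for the combination against ibrutinib; filled points have an adjusted p under 0.05 and dotted lines mark a log2 fold change of 1 in either direction. ALDH1L2 at 2.62 and SHMT1 at -0.48 are the filled points against control, and the ibrutinib panel has none.

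Serine synthesis begins with PHGDH (ENSG00000092621), phosphoglycerate dehydrogenase, the first enzyme of the pathway. PHGDH in JEKO1 was at 149 CPM in control, 313 with ironomycin, 385 with ibrutinib and 370 with the combination. In JVM2 it was at 225 CPM in control, 272 with ironomycin, 162 with ibrutinib and 256 with the combination, and in MAVER1 the values in the same order were 409, 498, 466 and 499.8 CPM. The JEKO1 control library was low against the other JEKO1 libraries, which did not separate by ironomycin, whereas in JVM2 and MAVER1 both libraries with ironomycin lay above both without it. The fitted log2 fold change was 0.49 ± 0.25 with ironomycin (SE, n = 3 lines, edgeR adjusted p = 0.272) and 0.54 ± 0.25 with the combination (edgeR adjusted p = 0.129). Without the JEKO1 control library these values were 0.17 and 0.21.

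PSAT1 (ENSG00000135069), the phosphoserine aminotransferase of the next step, was at 60.7 CPM in JEKO1 control, 87.1 with ironomycin, 95.4 with ibrutinib and 81.1 with the combination. The JVM2 values in that order were 94.9, 99.4, 64.3 and 86.1 CPM, and those of MAVER1 were 109.7, 189.5, 124.7 and 198.2 CPM. MAVER1 was the line in which the libraries with ironomycin stood clear of those without. Over the 3 lines the log2 fold change with ironomycin was 0.44 ± 0.21 (SE, edgeR adjusted p = 0.239), and with the combination it was 0.36 ± 0.21 (edgeR adjusted p = 0.208). Without the JEKO1 control library these values were 0.32 and 0.24.

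PSPH (ENSG00000146733), the phosphatase that completes serine, ranged from 23.9 to 34.8 CPM in JEKO1, from 31.0 to 34.4 CPM in JVM2 and from 35.5 to 43.3 CPM in MAVER1. In JEKO1 the control library was the lowest, and in MAVER1 both libraries with ironomycin, at 38.6 and 35.5 CPM, lay below both without it. The log2 fold change was 0.02 ± 0.14 with ironomycin (SE, n = 3 lines, edgeR adjusted p = 0.945) and 0.05 ± 0.14 with the combination (edgeR adjusted p = 0.817). A pseudogene, PSPHP1, had 104 to 153 counts in the JEKO1 libraries and 0 in the others, so the PSPH values of JEKO1 are uncertain to the extent that reads were split between them. Copies of the other members had at most 2 counts in any library.

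Of the hydroxymethyltransferases, SHMT1 (ENSG00000176974) was lower with ironomycin in each line. In JEKO1 it was at 34.1 CPM in control, 28.9 with ironomycin, 37.9 with ibrutinib and 23.9 with the combination. In JVM2 the values were 38.5, 32.6, 35.6 and 31.8 CPM, and in MAVER1 they were 41.2, 34.6, 39.6 and 26.1 CPM. Both libraries with ironomycin lay below both without it in each of the 3 lines, a pattern in 1 direction that 1 of the 10 members and 20.8% of all genes tested showed. Ironomycin alone gave a log2 fold change of -0.24 ± 0.10 (SE, n = 3 lines, edgeR adjusted p = 0.201). The combination lowered SHMT1 by 0.48 ± 0.10 against control, to 0.718 of its level, and the value against ibrutinib was -0.47 ± 0.10 (edgeR adjusted p = 0.0119), both short of the minimum size for a call. Neither passed by adjusted p without JEKO1, at -0.46 against control and -0.38 against ibrutinib (edgeR adjusted p = 0.101 and 0.166), or without MAVER1, at -0.39 and -0.42 (edgeR adjusted p = 0.141 and 0.153). With only the 6 libraries compared the adjusted p was 0.0847 and 0.0735 with edgeR, and without the line as block it was 0.892 and 0.999955. SMCR8, a gene on the opposite strand that overlaps SHMT1, had 450 to 1208 counts per library.

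SHMT2 (ENSG00000182199), which supplies the mitochondrial carbon unit, was at 1593 CPM in JEKO1 control, 2126 with ironomycin, 1992 with ibrutinib and 2221 with the combination. In JVM2 it was at 909, 947, 748 and 847 CPM in that order. In MAVER1 it was at 1364, 1699, 1246 and 1935 CPM. The libraries with ironomycin stood above those without in JEKO1 and MAVER1, and overlapped in JVM2. SHMT2 was higher with ironomycin in 6 of 6 pairs of libraries that shared line and ibrutinib. ALDH1L2 was likewise higher in 6 of 6 pairs, and SHMT1 lower in 6 of 6. Pairs of the same line are not independent, and the share of all genes with such a pattern was not determined. The log2 fold change was 0.26 ± 0.14 with ironomycin (SE, n = 3 lines, edgeR adjusted p = 0.292), 0.29 ± 0.14 with the combination against control (edgeR adjusted p = 0.131) and 0.32 ± 0.14 against ibrutinib (edgeR adjusted p = 0.107). Without the JEKO1 control library the values against control were 0.14 and 0.17. NDUFA4L2, on the opposite strand with an overlap, had 121 to 2213 counts per library and a log2 fold change of 0.90 with the combination (edgeR adjusted p = 0.0241). Whether counting used the strand is not given in the sources used here, and the part of these reads in the SHMT2 values was not tested.

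MTHFD2 (ENSG00000065911), the mitochondrial dehydrogenase and cyclohydrolase, was at 144.1 CPM in JEKO1 control, 147 with ironomycin, 164.0 with ibrutinib and 119 with the combination. The JVM2 values were 185, 198, 151 and 178 CPM, and the MAVER1 values 209, 251, 215 and 227 CPM. The combination library was the lowest in JEKO1, the ibrutinib library in JVM2 and the control library in MAVER1. With ironomycin the log2 fold change was 0.13 ± 0.12 (SE, n = 3 lines, edgeR adjusted p = 0.552), and with the combination it was -0.07 ± 0.12 (edgeR adjusted p = 0.721).

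ALDH1L2 (ENSG00000136010) had the lowest level of the members in JEKO1 and JVM2 and the highest fold change. In MAVER1 it was at 22.0 CPM in control, 129 with ironomycin, 26.9 with ibrutinib and 191 with the combination. In JEKO1 it was at 0.101 CPM in control, 0.861 with ironomycin, 0.201 with ibrutinib and 1.54 with the combination, from 4, 36, 8 and 65 counts. In JVM2 it was at 0.685, 1.10, 0.252 and 0.620 CPM in that order, from 24, 40, 9 and 23 counts. The 4 counts of the JEKO1 control have an exact 95% Poisson interval from 1.09 to 10.2, and the 36 counts with ironomycin one from 25.2 to 49.8, intervals that cover counting error only. Libraries with and without ironomycin did not overlap in JEKO1 and MAVER1. In JVM2 the combination library lay below the control library, and the values there rest on few reads.

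The log2 fold change of ALDH1L2 was 2.22 ± 0.45 with ironomycin (SE, n = 3 lines, edgeR adjusted p = 0.0561), 2.62 ± 0.44 with the combination against control and 2.61 ± 0.43 with the combination against ibrutinib (edgeR adjusted p = 0.0056). With ibrutinib alone its log2 ratio to control was 0.73 for JEKO1, -1.28 for JVM2 and 0.29 for MAVER1. The calls were lost without JEKO1 or without MAVER1. Without JEKO1 the combination gave 2.46 against control and 2.51 against ibrutinib (edgeR adjusted p = 0.0777 and 0.103). Without MAVER1 it gave 1.56 against control and 2.28 against ibrutinib (edgeR adjusted p = 0.229 and 0.16). Without JVM2, ironomycin alone gave 2.53 (edgeR adjusted p = 0.00106). C12orf45, which overlaps ALDH1L2 on the opposite strand, had 273 to 571 counts per library, more than ALDH1L2 in JEKO1 and JVM2, and its log2 fold change with the combination was -0.40 (edgeR adjusted p = 0.0305).

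ASNS (ENSG00000070669), asparagine synthetase, was at 68.0 CPM in JEKO1 control, 105.9 with ironomycin, 124 with ibrutinib and 117 with the combination. In JVM2 it was at 144 CPM in control, 172 with ironomycin, 93.5 with ibrutinib and 140.1 with the combination. In MAVER1 the values were 92.5, 146, 91.9 and 149 CPM. Ironomycin libraries stood above the others in MAVER1, but in JEKO1 the library with ibrutinib alone was the highest, and in JVM2 it was the lowest. The log2 fold change was 0.49 ± 0.22 with ironomycin (SE, n = 3 lines, edgeR adjusted p = 0.217) and 0.45 ± 0.22 with the combination (edgeR adjusted p = 0.147), against 0.30 and 0.25 without the JEKO1 control library.

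Within proline synthesis, PYCR1 (ENSG00000183010), the reductase of the last step, was at 121 CPM in JEKO1 control, 209.8 with ironomycin, 149 with ibrutinib and 173 with the combination. In JVM2 it was at 116, 155, 103 and 137 CPM. In MAVER1 it was at 201, 193, 186 and 184 CPM. The libraries with ironomycin lay above those without in JEKO1 and JVM2, while in MAVER1 the 4 values spanned less than 20 CPM. The log2 fold change was 0.38 ± 0.14 with ironomycin (SE, n = 3 lines, edgeR adjusted p = 0.149) and 0.20 ± 0.14 with the combination (edgeR adjusted p = 0.312), and without the JEKO1 control library they were 0.22 and 0.031. MYADML2 overlaps PYCR1 on the same strand and had 1 to 780 counts per library. Its log2 fold change with the combination was 1.24 (edgeR adjusted p = 0.055), and the part of these reads in the PYCR1 values was not tested.

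ALDH18A1 (ENSG00000059573), which makes the glutamate semialdehyde used for proline, ranged from 135 to 182 CPM in JEKO1, from 168 to 225 CPM in JVM2 and from 168 to 214 CPM in MAVER1. The combination library was the lowest in JEKO1 and MAVER1, and the ironomycin library the highest in JVM2. The log2 fold change was 0.09 ± 0.12 with ironomycin (SE, n = 3 lines, edgeR adjusted p = 0.698), -0.20 ± 0.12 with the combination against control (edgeR adjusted p = 0.222) and -0.29 ± 0.12 with the combination against ironomycin (edgeR adjusted p = 0.452).

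With ibrutinib alone, the ratios of several members had opposite signs in JEKO1 and JVM2, which the fit over 3 lines averages. Relative to its own control, ASNS had a log2 ratio of 0.87 in JEKO1, of -0.62 in JVM2 and of -0.01 in MAVER1. For PHGDH it was 1.37, -0.47 and 0.19, and for PSAT1 0.65, -0.56 and 0.18, in the same order. The JEKO1 control library held the lowest level of 7 members among the JEKO1 libraries, and the JVM2 library with ibrutinib the lowest level of 9 members among those of JVM2. With 1 library per line and treatment, these ratios have no replicate check, and a difference of the ibrutinib effect between lines was not tested.

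Next, the effect of ironomycin was fitted within each line, from the 2 libraries with ironomycin against the 2 without, with ibrutinib as a term shared by the lines. These libraries are the only repeats of a line, so p-values of this fit cover the spread between libraries and not between cultures. In JEKO1, 1 member was called, ALDH1L2, against 7.63% of all genes, and 3 passed by adjusted p alone against 33.3%. There ALDH1L2 rose by 2.96 ± 0.56 (SE, edgeR adjusted p = 0.00251), PYCR1 rose by 0.50 ± 0.12 (edgeR adjusted p = 0.00778), and SHMT1 had a change of -0.46 ± 0.12 (edgeR adjusted p = 0.0123). In MAVER1, ALDH1L2 was called against 6.56% of all genes, and 4 members passed by adjusted p alone against 32.3%. ALDH1L2 rose there by 2.69 ± 0.20 (SE, edgeR adjusted p = 1.18e-05), PSAT1 by 0.73 ± 0.20 (edgeR adjusted p = 0.0153) and SHMT2 by 0.48 ± 0.13 (edgeR adjusted p = 0.0177), while SHMT1 changed by -0.42 ± 0.12 (edgeR adjusted p = 0.0178). ASNS in MAVER1 gave 0.68 ± 0.24 (edgeR adjusted p = 0.0504). In JVM2, edgeR and DESeq2 called 0 members, and 2 had an unadjusted p under 0.05. Over all genes tested, edgeR called 0.648% there and 2.27% passed by adjusted p alone. DESeq2 called 94 of all genes tested, and 3556 had an unadjusted p under 0.05. ALDH1L2 in JVM2 gave 0.88 ± 0.49 (edgeR adjusted p = 0.365), SHMT1 gave -0.20 ± 0.12 (edgeR adjusted p = 0.391) and PYCR1 gave 0.41 ± 0.12 (edgeR adjusted p = 0.0902).

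**Figure D3:**
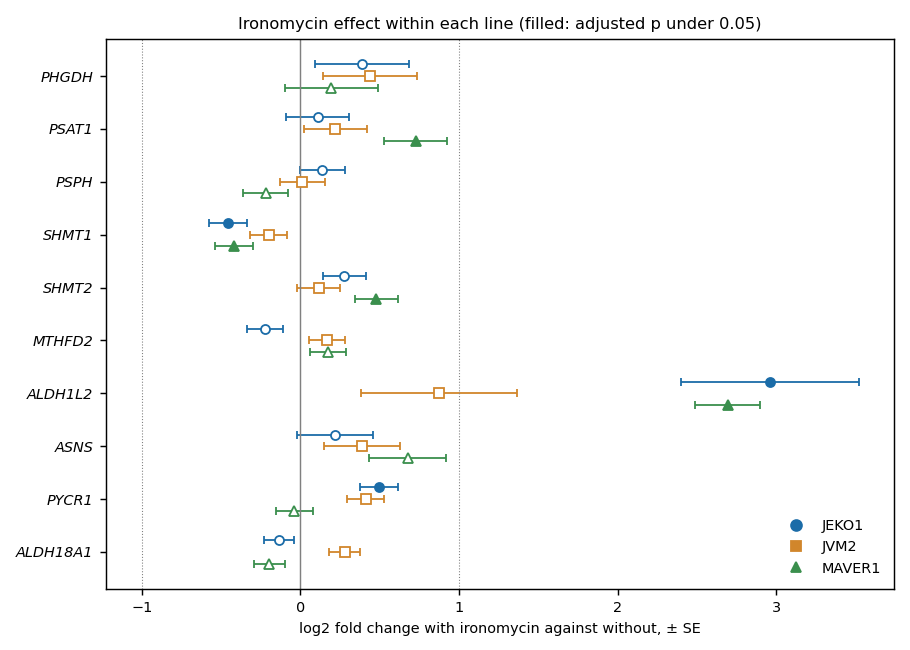
Fitted log2 fold change with ironomycin against without it (x axis, bars are the standard error) for each gene in JEKO1, JVM2 and MAVER1, each from 2 libraries with and 2 without; filled symbols have an adjusted p under 0.05. ALDH1L2 stands at 2.96 in JEKO1, 0.88 in JVM2 and 2.69 in MAVER1, and the JVM2 symbols are open throughout.

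Whether the ironomycin effect differed between lines was then tested directly in the same fit, with an F-test over the 3 effects of each gene. Its p-values also cover the spread between libraries and not between cultures. No such difference passed for a member with edgeR, against 7.97% of all genes, so 0 of 10 were called. An unadjusted p under 0.05 was found for 4 members, against 4900 of all genes tested. DESeq2 called 1, ALDH18A1, against 2225 of all genes tested. The smallest edgeR adjusted p values were 0.0767 for ALDH18A1, 0.103 for PYCR1 and 0.125 for ALDH1L2. ALDH18A1 had an effect of 0.28 in JVM2, against -0.13 in JEKO1 and -0.19 in MAVER1. A larger response of ALDH1L2 in JEKO1 and MAVER1 than in JVM2 is therefore not shown by this test, and nor is an equal one. With pairs of libraries as block, ALDH1L2 was the 1 member that passed.

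Isoenzymes of the members gave a further comparison, since a ratio of 2 genes within a library does not depend on its scaling. SHMT2 per SHMT1 transcript, both per kb of exon, stood at 70.3 in JEKO1 control, 110.8 with ironomycin, 79.1 with ibrutinib and 140.2 with the combination. In JVM2 the ratio was 35.5, 43.7, 31.7 and 40.1 in that order, and in MAVER1 it was 49.8, 73.9, 47.4 and 111.7. The ratio was higher in both libraries with ironomycin than in both without it in each line. SHMT1 alone already separated in each line, a pattern in 1 direction that 20.8% of all genes tested showed. MTHFD2 per MTHFD1, the cytosolic trifunctional enzyme, went from 0.80 to 0.958 without ironomycin to 1.16 to 1.35 with it in JEKO1. In JVM2 it was 1.04 to 1.25 without and 1.43 to 1.61 with ironomycin, and in MAVER1 1.27 to 1.31 without and 1.93 to 2.28 with it. MTHFD1 itself fell with the combination by 0.66 ± 0.13 (SE, n = 3 lines, edgeR adjusted p = 0.00656), while MTHFD1L gave -0.11 ± 0.08 (edgeR adjusted p = 0.339) and MTHFD2L 0.16 ± 0.12 (edgeR adjusted p = 0.36). MTHFD1 was lower with ironomycin in 6 of 6 pairs of libraries that shared line and ibrutinib. These ratios are a description, chosen with the values known, and were not tested. The share of other gene pairs whose ratios separate in this way was not determined.

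**Figure D4:**
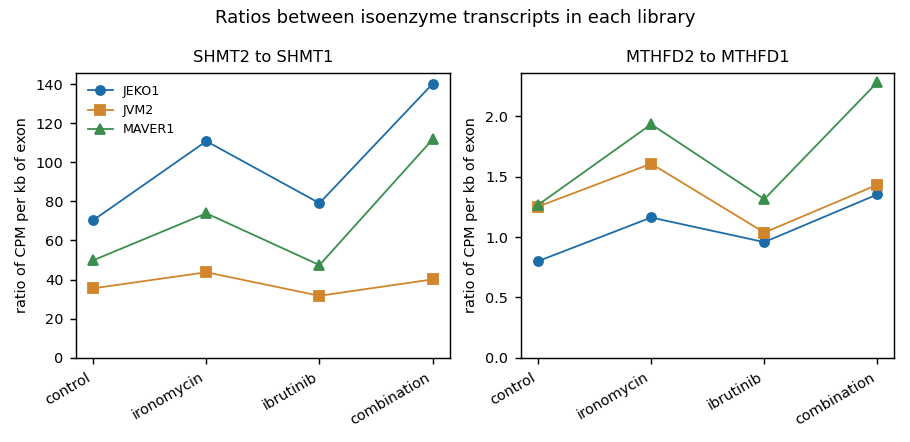
Ratio of SHMT2 to SHMT1 and of MTHFD2 to MTHFD1 (y axis, CPM per kb of exon of the first gene over that of the second, from 0) under the 4 treatments (x axis), 1 point per library and line. In each line and panel both points with ironomycin lie above both without it, as for SHMT2 to SHMT1 in MAVER1 at 73.9 and 111.7 against 49.8 and 47.4.

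After removing the mean of each line, the members did not all vary together over the 12 libraries. Pearson's r was 0.95 between ASNS and PSAT1, 0.91 between ASNS and SHMT2, 0.84 between ASNS and PHGDH and 0.92 between SHMT2 and ALDH1L2. SHMT1 ran against ALDH1L2 with r = -0.84. PSPH and ALDH18A1 went less with ASNS, at 0.34 and -0.12, although PSPH reached 0.73 with PHGDH. These values describe 12 libraries that share lines and treatments. Over 11212 genes that averaged 1 log2 CPM or more, those most like ASNS were PSAT1 at r = 0.95, NADK2 and MEX3B at 0.94 and 0.93, the pseudogene EEF1A1P19 at 0.93 and PCK2, the mitochondrial phosphoenolpyruvate carboxykinase, at 0.92. Most like PSAT1 were ASNS at 0.95, ZNF627 at 0.94, GAB1 at 0.92, RPS27 at 0.92 and ZNF184 at 0.92. Most like PHGDH were DHX40 at 0.89, GPT2, an alanine aminotransferase, at 0.89, CARS1, a cysteinyl-tRNA synthetase, at 0.88, CBS, which starts transsulfuration from homocysteine and serine, at 0.86 and CD81 at 0.86. EEF1A1P19 is a processed copy whose reads can be shared with its parent gene.

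Of 18 other genes of the folate and one-carbon cycle, 17 were tested and 0 were called in any comparison with edgeR. DESeq2 called 1, in the difference between lines, against 2225 of 18674 genes. With the combination against control, 10 had an unadjusted p under 0.05, against 7684 of 18674 genes. By adjusted p alone, 2 rose and 6 fell with the combination against control, which is 8 of 17 against 28.2% of all genes, and the median of the list was -0.25 against 0.05 over all genes. MTR, methionine synthase, rose by 0.34 ± 0.07 (SE, n = 3 lines, edgeR adjusted p = 0.00804). ATIC and GART, enzymes of purine synthesis that use formyl-tetrahydrofolate, changed by -0.56 ± 0.11 and -0.40 ± 0.09 (edgeR adjusted p = 0.00719 and 0.00937). Against ibrutinib, the combination had 2 that rose and 8 that fell by adjusted p alone, or 10 of 17 against 23.3% of all genes.

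Of 18 genes of glycine cleavage, serine use and transsulfuration, 17 were tested and 0 were called over the 3 lines, by edgeR or DESeq2. With the combination against control 9 had an unadjusted p under 0.05, against 7684 of 18674 genes. By adjusted p alone 3 rose and 4 fell, or 7 of 17 against 28.2% of all genes. CBS rose by 0.67 ± 0.18 and AMT, the aminomethyltransferase of glycine cleavage, by 0.79 ± 0.14 (SE, n = 3 lines, edgeR adjusted p = 0.0178 and 0.00467). SFXN1, a mitochondrial serine transporter, changed by -0.57 ± 0.10 (edgeR adjusted p = 0.00398). Within lines, SDSL, a serine dehydratase-like enzyme, was called in JEKO1 at 2.16 ± 0.43 (edgeR adjusted p = 0.00337) and in MAVER1 at 3.22 ± 0.60 (edgeR adjusted p = 0.0019), from 5 and 4 counts in the control libraries, so the fitted sizes rest on few reads. GLDC, the glycine decarboxylase, was called in MAVER1 at -2.05 ± 0.67 (edgeR adjusted p = 0.0356), where it had at most 13 counts and 0 with the combination, so that its size depends on the prior count, against 4460 to 5811 counts per library in JVM2. The ironomycin effect differed between lines for SDSL, GCAT and SPTLC2 (edgeR adjusted p = 0.0128, 0.0255 and 0.0177). For SPTLC2, a subunit of the serine palmitoyltransferase, it was 0.29 in JEKO1 and 0.31 in JVM2, against 0.87 in MAVER1. GCAT, a glycine acetyltransferase, gave -0.39 in JEKO1 and -0.32 in MAVER1 but 0.30 in JVM2, and SDSL gave 0.09 in JVM2.

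Of 16 genes of the proline, glutamate and aspartate steps, 15 were tested and 0 were called over the 3 lines, by edgeR or DESeq2. For the combination against control 8 had an unadjusted p under 0.05, against 7684 of 18674 genes. By adjusted p alone, 2 rose and 3 fell. These 5 of 15 lie near the 28.2% of all genes that passed in that comparison. GLS2, a glutaminase, rose by 0.84 ± 0.20 and GPT2 by 0.63 ± 0.21 (SE, n = 3 lines, edgeR adjusted p = 0.0116 and 0.0445). GOT2, the mitochondrial aspartate aminotransferase, changed by -0.62 ± 0.13 (edgeR adjusted p = 0.00805). PRODH, which degrades proline, was called in JVM2 at 1.74 ± 0.26 (edgeR adjusted p = 0.008), from 35 counts in control, 109 with ironomycin, 43 with ibrutinib and 165 with the combination. DESeq2 called 0 genes of this list in JVM2.

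Stress genes were followed in the same libraries. Of 19 genes of ATF4 and other stress responses, 17 were tested; the list holds known ATF4 targets, and was drawn up with results of these libraries known. With the combination against control, 12 of 17 rose and were called, against 6.29% of all genes, with a list median of 1.41. With ironomycin against control, edgeR called 0, against 0.214% of all genes. An unadjusted p under 0.05 was found for 15 of 17, against 4198 of 18674 genes, and DESeq2 called 7, against 156 of 18674. ATF4 itself gave 0.25 ± 0.13 with ironomycin (SE, n = 3 lines, edgeR adjusted p = 0.288) and rose by 0.48 ± 0.13 with the combination (edgeR adjusted p = 0.0218). DDIT3, the stress factor CHOP, rose with the combination by 1.82 ± 0.33, TRIB3, a pseudokinase that restrains ATF4, by 1.96 ± 0.55 and CHAC1, which degrades glutathione, by 1.61 ± 0.47 (edgeR adjusted p = 0.00462, 0.0238 and 0.0275). Within lines, edgeR called 14 of 17 in JEKO1, 11 in MAVER1 and 1, GDF15, in JVM2, against 7.63%, 6.56% and 0.648% of all genes. DESeq2 called 12, 10 and 0 in the same order, against 997, 969 and 94 of 18674 genes, so the call in JVM2 was lost with it. The ironomycin effect differed between lines for 10 of 17 stress genes, against 7.97% of all genes. For TRIB3 the effect reached 3.22 ± 0.25 in JEKO1 and 1.47 ± 0.24 in MAVER1 against 0.41 ± 0.23 in JVM2 (edgeR adjusted p of the difference 0.00216).

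Proliferation markers were lower with the combination. All 15 were tested, and with the combination against control 1 was called, CCNB1, which encodes cyclin B1 and fell by 1.03 on the log2 scale, while 12 fell by adjusted p alone, against 28.2% of all genes that passed in either direction, and the list median was -0.55. Their summed level was 7299 CPM in JEKO1 control and 4305 with the combination, 6557 and 5424 in JVM2, and 8121 and 5647 in MAVER1. Of 5 plasma cell markers tested, 2 were called upward with ironomycin in JEKO1 and 2 in MAVER1, against 7.63% and 6.56% of all genes. In JVM2 edgeR called 0, against 0.648% of all genes, and DESeq2 called 0, against 94 of 18674 genes. There 2 had an unadjusted p under 0.05, against 3556 of 18674 genes. There 1 of 5 was above 0, and 1 fell by adjusted p alone. The ironomycin effect differed between lines for 4 of these 5 markers, against 7.97% of all genes. Their summed level ranged from 146 to 435 CPM in JEKO1, from 1753 to 1923 CPM in JVM2 and from 821 to 1192 CPM in MAVER1. Of 6 B-cell markers, 5 fell with ironomycin by adjusted p alone in JEKO1 and 4 in MAVER1, against 33.3% and 32.3% of all genes. In JVM2 0 passed (2.27% of all genes), 1 had an unadjusted p under 0.05 (3556 of 18674 genes), and DESeq2 called 0. CD22, an inhibitory receptor of B cells, was the 1 called in JEKO1, where it fell by 1.06 ± 0.20, and in MAVER1, where it fell by 1.34 ± 0.19 (SE, edgeR adjusted p = 0.00219 and 0.000405). The part of proliferation, of the stress response, of B-cell or of plasma cell genes in the values of the members was not tested.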

How the data were processed

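Polyadenylated RNA of 12 libraries was sequenced as paired ends. The authors deposited 1 table of raw counts per Ensembl gene, not normalized; their processing notes name GRCh37, STAR and DESeq2, with versions and the counting tool not given in the sources used here. 0 columns were left unused, and 39699 of 63677 genes had a symbol. Counts were filtered with filterByExpr, scaled by TMM (factors 0.914 to 1.19) and tested with edgeR 4.0.16 in R 4.3.3 by the quasi-likelihood F-test on treatment with line as block, or on an ironomycin effect per line. p-values were adjusted by Benjamini-Hochberg over 18674 genes. Totals were 35448523 to 38630809 counts per library; counting error matters mainly for ALDH1L2, which had 4 to 65 counts in JEKO1 and JVM2. Log2 CPM used a prior count of 2. Libraries of the same line deviated together from the treatment means (r from 0.926 to 0.976 in 18 pairs, against -0.705 to -0.127 in 48 pairs of different lines), so line paired the libraries. Lengths are unions of exons (GENCODE 29). Scripts were tested on simulated data. Groups came from the labels.

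The members and gene lists were chosen with earlier results of these data known. Named were the members, MTHFD1, MTHFD1L, MTHFD2L, ATF4, DDIT3, CHAC1 and TRIB3, list genes called where at most 5 were (otherwise the 5 largest), and the 5 genes most like ASNS, PHGDH and PSAT1; the genes named for passing by adjusted p alone were chosen after their values were seen. Alternatives were other scalings and filters, DESeq2 1.42.0, no block, the compared libraries alone and leaving out lines. Some list genes are not reported here by name.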

Additional observations from a re-analysis of the deposited data

Results flagged for a closer look

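No member was flagged. Of the stress genes named beside the members, TRIB3, CHAC1 and DDIT3 were flagged because their ironomycin effect differed between the 3 lines. The edgeR adjusted p of that difference was 0.00216 for TRIB3, 0.0246 for CHAC1 and 0.0179 for DDIT3. For CHAC1 the log2 effect reached 2.65 ± 0.32 in MAVER1, against 0.91 ± 0.29 in JEKO1 and 0.63 ± 0.28 in JVM2 (SE). DDIT3 gave 2.54 ± 0.21 in JEKO1, 1.59 ± 0.21 in MAVER1 and 0.92 ± 0.22 in JVM2 (SE). Line and dose cannot be told apart in these values.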

How the results depend on the processing

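Direction and side of the threshold for a call held for 474 of 530 values of single members and 81 of 99 counts over the alternatives run. With ironomycin against control, the count of members called went from 0 to 1 with library totals in place of TMM, with no filter on low counts and with DESeq2, and from 0 to 1 over the sets that left out a line or the JEKO1 control. In each case the member was ALDH1L2, with adjusted p of 0.0467, 0.0056 and 0.0371, and 0.00106 without JVM2, against 0.999946 without the block. With the combination against control the count went from 1 to 2 by adjusted p alone and to 0 with only the 6 libraries compared, where ALDH1L2 gave 2.43 (adjusted p = 0.0777), and from 0 to 1 over the sets that left out a line. With the combination against ibrutinib it went from 1 to 2 by adjusted p alone and from 0 to 1 over those sets. Without the replicate block that pairs the libraries of a line, 0 members were called in both comparisons, and ALDH1L2 gave 3.08 and 2.82. The JEKO1 count went to 3 and the MAVER1 count to 4 by adjusted p alone. For the difference between lines the count was 1 with DESeq2, 1 (ALDH1L2) with pairs of libraries as block and 0 to 2 over the sets that left out a line, the 2 being PYCR1 and ALDH18A1 without JEKO1. Leaving out the JEKO1 control, an alternative chosen after seeing the data, changed no count. It lowered the values of ASNS, PHGDH, SHMT2 and PYCR1 against control, and that of PSAT1 with the combination, by more than 1.5 times. PSPH then fell below 0, at -0.16 with ironomycin and -0.14 with the combination. Of the 530 values over the alternatives, 45 had the opposite sign to the main fit. The lowest adjusted p among them, by edgeR or DESeq2, was 0.384. They came from 20 results, each being 1 member in 1 comparison. Of those printed in the text, MTHFD2 with the combination against control was 0.056 with library totals and ran from -0.16 to 0.031 over the sets that left out a line or the JEKO1 control. Over those sets PSPH ran from -0.16 to 0.12 with ironomycin and from -0.18 to 0.22 with the combination, and ALDH18A1 with ironomycin from -0.062 to 0.18. The causes were not tested.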
